A study of Mus musculus with 8 samples.

Results

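The genes described here are 10 mouse genes of matrix turnover, chosen by name among the 21879 genes measured: 4 matrix metalloproteinases (Mmp2, Mmp11, Mmp14 and Mmp19), 3 tissue inhibitors of metalloproteinases (Timp1, Timp2 and Timp3) and 3 lysyl oxidases (Lox, Loxl1 and Loxl2). Their mRNA was measured by sequencing of poly(A) RNA. The cells were C2C12, a single mouse line of myoblasts that fuse into myotubes once serum is lowered. Every sample is given as muscle differentiation, with no time in low serum stated, and the 2 groups of 4 libraries differ in the siRNA delivered by lipid transfection, which was against Fam129b (siFam129b) or a control (siNC). The stated interest was the part Fam129b plays in muscle atrophy. Whether the 4 libraries of a group stem from separate cultures is not stated, and p-values therefore cover the spread between these libraries, which may be technical.

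Metalloproteinases are zinc-dependent proteases, made as inactive precursors, that cut collagens, laminins and other matrix proteins around the cell. Their inhibitors bind the active site of the mature protease. Mmp14 sits in the plasma membrane, where a complex of Mmp14 and Timp2 captures the precursor of Mmp2 for activation, so Timp2 both inhibits Mmp2 and helps to activate it. Lysyl oxidases are copper-dependent enzymes that oxidise lysines of collagen and elastin, the step from which covalent crosslinks form. In muscle, matrix proteolysis accompanies migration and fusion of myoblasts.

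All 10 genes were expressed, and 0 of the 10 passed the test between siFam129b and siNC. Every one had a mean of at least 1 FPKM (fragments per kilobase of gene, scaled to the depth of the library) and so entered the test. The lowest count behind any value was 783 reads and the highest 33971, as recovered from the FPKM. limma over 11025 genes called 0 of the 10 members at an adjusted p of 0.05, and 0 of all genes, so the background share of calls was 0%; voom, run on reads recovered from the FPKM, called 0 as well. At an unadjusted p under 0.05 stood 0 of the 10, against 274 genes or 2.49% of all tested (254 genes with voom). In 6 of 22 other fits 1 to 3 members were under that value, as given with the comparison of the groups. In 0 of the 10 were the groups without overlap, where every siFam129b library lay above every siNC library for 1.9% of tested genes and below for 1.46%.

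The targeted gene and the libraries were checked first. The mean of Fam129b was 98.5 ± 19.9 FPKM in siFam129b libraries and 168 ± 11.6 FPKM in siNC libraries (SD, n = 4 each). The groups did not overlap, for an exact permutation p (two-sided) of 0.0286, and no lower p is possible with 4 and 4 libraries. In the limma fit Fam129b had a log2 difference of -0.78 ± 0.13 (SE) and did not pass, with an adjusted p of 0.784. siFam129b library 4 stood apart, with 128 FPKM of Fam129b and a sum of 470385 FPKM over all genes, against 391336 to 398292 FPKM in the 7 others. In both groups, libraries 1 and 2 also differed from 3 and 4, a split taken from the data since the labels name no batch. The defining markers of C2C12 myoblasts were present, all 8 of those listed passing the filter. Their summed level was 493 to 676 FPKM with siFam129b and 480.1 to 657 FPKM with siNC. Des was the highest of them, with means of 235 FPKM with siFam129b and 219 FPKM with siNC. Myod1 and Itga7 also had the higher mean with siFam129b, while Myf5, Cdh15, Chrna1, Pax7 and Ncam1 had the lower. Myf5 had the largest such difference, with means of 9.63 FPKM with siFam129b and 13.7 FPKM with siNC. Its log2 difference was -0.53 ± 0.27 (SE), with an adjusted p of 0.784 in limma. Pax7, at 1.03 to 1.46 FPKM, was little above the filter. Myotube markers, of which 5 of 8 passed (Myog, Acta1, Tnnt3, Mylpf and Tmem8c), summed to 12.4 to 27.7 FPKM with siFam129b. With siNC their sum was 18.5 to 51.2 FPKM. Of 6 endothelial markers 0 passed and the sum stayed at or under 0.378 FPKM in every library, with Emcn at 0. Of the 5 macrophage markers measured, 1 passed (Cd68), and the sum was 2.86 to 4.57 FPKM with siFam129b and 2.88 to 3.71 FPKM with siNC, with Itgam at 0 and Ptprc at or under 0.0247 FPKM. Of 8 fibroblast markers 4 passed (Pdgfra, Dcn, Gsn and Cd34), summing to 332 to 404 FPKM with siFam129b and 281 to 377 FPKM with siNC, while Lum, Thy1, Dpt and Pi16 stayed at or under 0.427 FPKM. Of 6 adipocyte markers 2 passed (Pparg and Cebpa), summing with the others to 16.0 to 18.5 FPKM with siFam129b and 15.1 to 16.7 FPKM with siNC, with Lep at 0. In a bulk sample, a smaller share of cells with a transcript and less of it per cell cannot be told apart.

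The sequences before the transcription start are shown for 4 members: Mmp11 and Mmp14, the pair that lay above siNC within both replicate pairs, and Timp1 and Timp3, which stood on opposite sides in siFam129b library 4. RefSeq entries (build GRCm38.p6), matched by symbol, were used for 5 of the 10, the fifth being Timp2. Lox was left out of this search. Each run is the 250 bases before the start, 5′ to 3′ on the gene's strand. Capitals mark GGGCGG (the GC box), CCAAT (the CCAAT box) or GGAATG (a TEAD core motif), found on either strand. TGANTCA (AP-1) and TATAAA (the TATA box) were also searched. In Mmp14 the last CCAAT match, read as ATTGG, shares 1 base with the GC box after it, and 2 GC boxes follow each other.
Mmp11 (chr10:75932503-75932752, minus strand): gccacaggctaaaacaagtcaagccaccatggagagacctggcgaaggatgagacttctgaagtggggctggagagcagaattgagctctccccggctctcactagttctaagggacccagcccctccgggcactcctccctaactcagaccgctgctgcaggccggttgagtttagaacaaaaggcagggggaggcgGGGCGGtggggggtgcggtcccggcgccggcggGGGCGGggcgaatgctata
Mmp14 (chr14:54431348-54431597, plus strand): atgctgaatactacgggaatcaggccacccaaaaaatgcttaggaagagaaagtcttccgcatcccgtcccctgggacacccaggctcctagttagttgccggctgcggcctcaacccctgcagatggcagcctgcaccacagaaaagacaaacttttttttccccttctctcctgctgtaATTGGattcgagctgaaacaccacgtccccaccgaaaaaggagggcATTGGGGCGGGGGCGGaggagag
Timp1 (chrX:20869916-20870165, plus strand): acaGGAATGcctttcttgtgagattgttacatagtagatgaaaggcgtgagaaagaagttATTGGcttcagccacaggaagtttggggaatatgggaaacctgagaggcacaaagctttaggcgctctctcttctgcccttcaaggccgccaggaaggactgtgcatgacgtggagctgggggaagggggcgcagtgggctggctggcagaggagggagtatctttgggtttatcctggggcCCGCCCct
Timp3 (chr10:86300162-86300411, plus strand): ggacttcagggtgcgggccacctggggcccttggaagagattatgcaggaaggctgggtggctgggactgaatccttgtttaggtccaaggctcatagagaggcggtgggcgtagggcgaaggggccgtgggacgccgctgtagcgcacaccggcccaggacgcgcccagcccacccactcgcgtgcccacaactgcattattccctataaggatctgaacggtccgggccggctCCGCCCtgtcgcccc

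The GC box, a binding motif of Sp factors, was found in 5 of the 5 windows, Timp2 included, and in 32.7% of 32817 RefSeq promoter windows of this length. Mmp11 and Mmp14 held 2 matches each, the nearest ending 14 bases before the start in Mmp11 and 8 in Mmp14. The CCAAT motif was found in Mmp14, Timp1 and Timp2 and in 33.8% of all windows, and the TEAD motif in Timp1 and in 12.6%. AP-1 and TATA letters, held by 6.75% and 12.4% of all windows, did not occur in the 5. The GC content was 63.2% for Mmp11, 55.2% for Mmp14, 54.4% for Timp1, 68% for Timp2 and 65.6% for Timp3, against a median of 52.4%. These matches are a description of letters and say nothing of binding.

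The levels of the 10 spanned 9.92 to 239.3 FPKM as means, which are per length. The values of siFam129b library 4 went with gene length, which limits comparison between genes of unlike length there. Timp2 was the highest, at a mean of 239.3 FPKM over the 8 libraries. It exceeded Timp1 (186 FPKM) in 7 of the 8, the exception being siFam129b library 4. Timp1, Lox (174 FPKM) and Mmp2 (158 FPKM) could not be ordered, as Timp1 was above Lox in 4 libraries and Lox above Mmp2 in 5. Mmp14 followed at 111 FPKM, below Mmp2 and above Loxl1 in 8 of 8. Loxl1 (45.8 FPKM) and Timp3 (44.1 FPKM) were each above the other in 4 libraries. Mmp11 came next at 29.2 FPKM, and Loxl2 (10.2 FPKM) and Mmp19 (9.92 FPKM) were again each higher in 4. Timp2 lay at the 97.9th percentile of mean FPKM among the tested genes and Mmp19 at the 36.6th.

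**Figure D1:**
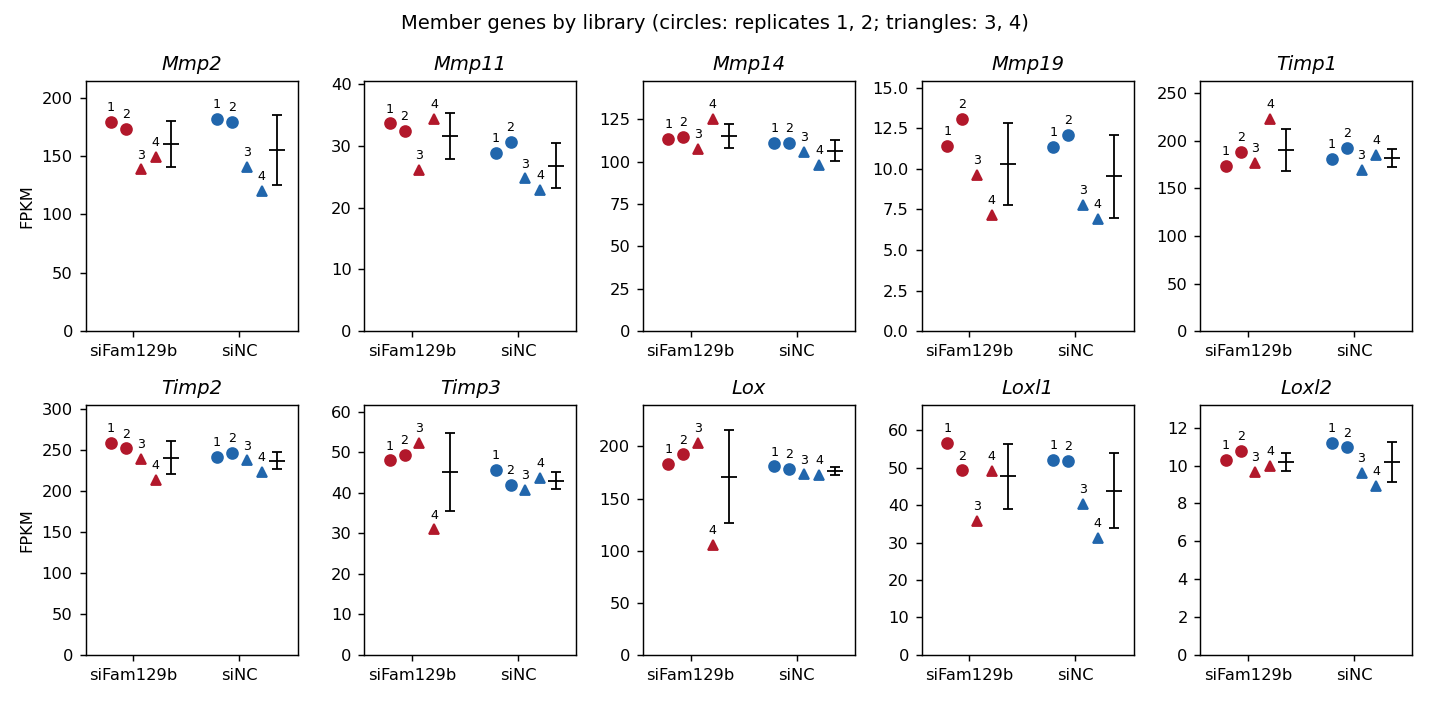
FPKM of the 10 members in each library, with siFam129b on the left and siNC on the right of each panel, circles for replicates 1 and 2, triangles for 3 and 4, and bars for mean and SD (n = 4). The groups overlap in every panel, siFam129b library 4 is lowest for Lox at 105 FPKM and Timp3 at 31.0 FPKM, and Mmp2 and Mmp19 are higher in replicates 1 and 2 of both groups.

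Among the proteases, Mmp2, a gelatinase that cuts denatured collagen and basement membrane collagen, had 179.6, 173, 139 and 149 FPKM in siFam129b libraries 1 to 4, against 182, 179, 141 and 120.3 FPKM in siNC libraries 1 to 4. The groups overlapped throughout, and libraries 1 and 2 of both groups were above 3 and 4. Its log2 difference was 0.06 ± 0.15 (SE), with a 95% interval of -0.28 to 0.39.

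Mmp14, the membrane-bound activator of Mmp2, had 113, 114, 108 and 125 FPKM with siFam129b, against 111, 111, 106 and 98.2 FPKM with siNC. Its log2 difference was 0.11 ± 0.08 (SE), with a 95% interval of -0.08 to 0.30, and an adjusted p of 0.784 in limma. siFam129b library 3 was the one that reached into the siNC range. Within replicates 1 and 2, and again within 3 and 4, both siFam129b libraries lay above both siNC libraries.

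Mmp11, stromelysin-3, which furin activates inside the cell, had 33.7, 32.4, 26.1 and 34.3 FPKM with siFam129b, against 28.9, 30.7, 24.7 and 22.9 FPKM with siNC. siFam129b libraries 1, 2 and 4 were above every siNC library, and library 3 was inside the siNC range. The mean was 31.6 ± 3.76 FPKM with siFam129b and 26.8 ± 3.59 FPKM with siNC (SD, n = 4 each). Its log2 difference of 0.23 ± 0.12 (SE) was the largest of the 10, with a 95% interval of -0.05 to 0.51 and an adjusted p of 0.784 in limma. Like Mmp14, it lay above siNC without overlap within each replicate pair, as did 5.78% of tested genes, against 5.28% in the other direction. Thus 2 of the 10 members met that description. Exons of Chchd10 on the other strand cover 5.58% of its exon bases, and Chchd10 ranged from 0.648 to 2.16 FPKM, highest in siFam129b library 4.

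Mmp19, a secreted protease of basement membranes, had 11.4, 13.1, 9.61 and 7.15 FPKM with siFam129b, against 11.3, 12.1, 7.78 and 6.94 FPKM with siNC. Its values varied most of the proteases, with a coefficient of variation of 24.6% with siFam129b and 26.8% with siNC. Its log2 difference was 0.11 ± 0.21 (SE), and the interval ran from -0.37 to 0.58. In GENCODE M21, 22.3% of its exon bases overlap exons of Tmem198b on the other strand. Tmem198b had 12.9 FPKM in siFam129b library 4 and 16.3 to 20.5 FPKM in the 7 other libraries. The sources used here do not say that strand was used in counting, so reads of the pair in those bases cannot be told apart.

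Among the inhibitors, Timp2 had 259, 252, 239 and 214 FPKM with siFam129b, against 242, 247, 238 and 223 FPKM with siNC. Its siFam129b libraries included both the 2 highest and the lowest of the 8. The log2 difference was 0.02 ± 0.09 (SE), with a 95% interval of -0.18 to 0.22.

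Timp1, a soluble inhibitor of many metalloproteinases, had 174, 188, 176 and 223 FPKM with siFam129b, against 181, 192, 169.7 and 185 FPKM with siNC. Libraries 1 to 3 with siFam129b lay inside the siNC range and library 4 above it. Its log2 difference was 0.06 ± 0.10 (SE), with a 95% interval of -0.16 to 0.28, and was -0.02 without siFam129b library 4.

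Timp3, which binds to the matrix itself, had 48.0, 49.4, 52.3 and 31.0 FPKM with siFam129b, against 45.7, 42.0, 40.8 and 43.6 FPKM with siNC. Libraries 1 to 3 with siFam129b were above every siNC library and library 4 was below all. The log2 difference was 0.04 ± 0.15 (SE) with all 8 libraries and 0.21 ± 0.06 (SE) without siFam129b library 4, where the adjusted p in limma was 0.87. Exons of Syn3 on the other strand overlap 21.3% of the exon bases of Timp3, and Syn3 was at or under 0.45 FPKM in every library.

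Among the crosslinkers, Lox, the first described lysyl oxidase, had 183, 192, 203 and 105 FPKM with siFam129b, against 181, 178, 173 and 173 FPKM with siNC. As for Timp3, siFam129b libraries 1 to 3 were above every siNC library and library 4 was below all. The 4 siNC libraries were close together, with a coefficient of variation of 2.19%, against 26.1% with siFam129b. The log2 difference was -0.09 ± 0.19 (SE) with all libraries and 0.13 ± 0.05 (SE) without siFam129b library 4, and its adjusted p in limma was 0.875 and 0.87. siFam129b libraries 1 to 3 were all above every siNC library for 2 of the 10 members, Timp3 and Lox, and for 3.26% of tested genes, with 2.58% below.

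Loxl1, a lysyl oxidase needed for elastic fibre upkeep, had 56.6, 49.2, 35.8 and 49.1 FPKM with siFam129b, against 52.0, 51.8, 40.2 and 31.2 FPKM with siNC. The groups overlapped, and the lowest value was siNC library 4. Its log2 difference was 0.13 ± 0.19 (SE), with a 95% interval of -0.29 to 0.55. Loxl2, which crosslinks basement membrane collagen, had 10.3, 10.8, 9.66 and 9.98 FPKM with siFam129b, against 11.2, 10.95, 9.63 and 8.94 FPKM with siNC. It was the steadiest of the crosslinkers with siFam129b, and its log2 difference was 0.00 ± 0.10 (SE), with a 95% interval of -0.22 to 0.23.

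Over the 10 members, 9 log2 differences lay above 0 and 1, that of Lox, below, with a median of 0.06. Over all tested genes 50.6% lay above 0, with a median of 0.00. On the fold scale of FPKM + 1, the 95% intervals reached no higher than 1.497 (Mmp19) and no lower than 0.702 (Lox). The intervals differed in width between members, from 0.948 to 1.23 for Mmp14 and from 0.774 to 1.497 for Mmp19. The direction of 8 of the 10 turned under at least 1 other fit, and the exceptions were Mmp11, from 0.14 to 0.32, and Mmp14, from 0.03 to 0.19.

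The fits in which a member was under an unadjusted p of 0.05 in limma involved Mmp11, Timp3 and Lox, each higher with siFam129b. Without siFam129b library 4 these were Timp3 and Lox, 2 of the 10, against 4.31% of tested genes. With the split of replicates 1 and 2 against 3 and 4 as a covariate it was Mmp11, 1 of the 10, against 4.06%. Combining the 2 changes rests on a split and a library picked out from these data. With both changes they were Mmp11, Timp3 and Lox, 3 of the 10, against 11.3% of tested genes. The limma p was then 0.00169 for Timp3, 0.00904 for Lox and 0.0144 for Mmp11, with adjusted p of 0.226, 0.318 and 0.332. In replicates 1 and 2 alone and with array weights they were Mmp11 and Timp3, 2 of the 10, against 10.3% and 10.7%. Without siFam129b library 3 it was Mmp11, 1 of the 10, against 6.91%. In the 16 remaining fits 0 of the 10 were under it.

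**Figure D2:**
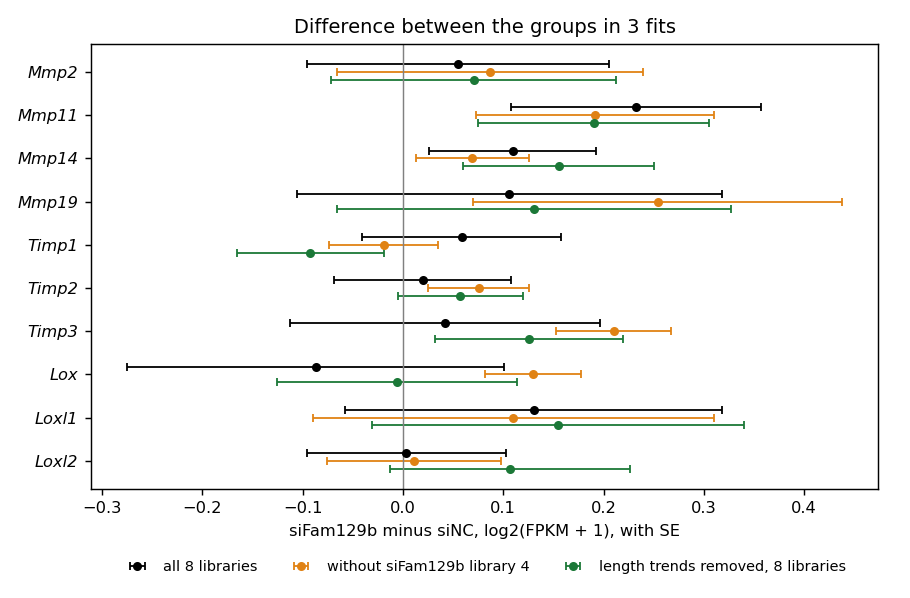
Log2 difference of each member, siFam129b minus siNC on log2(FPKM + 1), with its SE, from 3 limma fits: all 8 libraries, without siFam129b library 4, and with length trends removed. Lox moves from -0.09 to 0.13 when that library is left out, Timp3 from 0.04 to 0.21, and Timp1 lies at -0.09 once length trends are removed.

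The distance of siFam129b library 4 from libraries 1 to 3 went with gene length, and the members followed that order in part. Over the tested genes, its log2 difference from the mean of siFam129b libraries 1 to 3 had a median of 0.57 in 746 genes with an implied length under 1000 bp. The median was 0.13 between 2000 and 3000 bp, -0.30 between 4000 and 5000 bp and -0.62 in 1859 genes over 5000 bp. Timp1, the shortest member at 863 bp, stood at 0.31. Lox, at 4636 bp, stood at -0.87 and Timp3, at 4687 bp, at -0.67, both further below 0 than their length class. Mmp19 (3349 bp) was at -0.59 where its class was at -0.08. Mmp14 (3805 bp), at 0.16, and Loxl2 (5259 bp), at -0.03, did not follow the median of their class. This library was below all 7 others for Timp2, Timp3 and Lox, as for 37.7% of tested genes, and above all 7 for Mmp11, Mmp14 and Timp1, as for 39.9%. With each library's length trend removed, in a fit added once the values were known, Lox was at -0.01 ± 0.12 (SE) and Timp1 at -0.09 ± 0.07 (SE), and 0 genes passed.

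**Figure D3:**
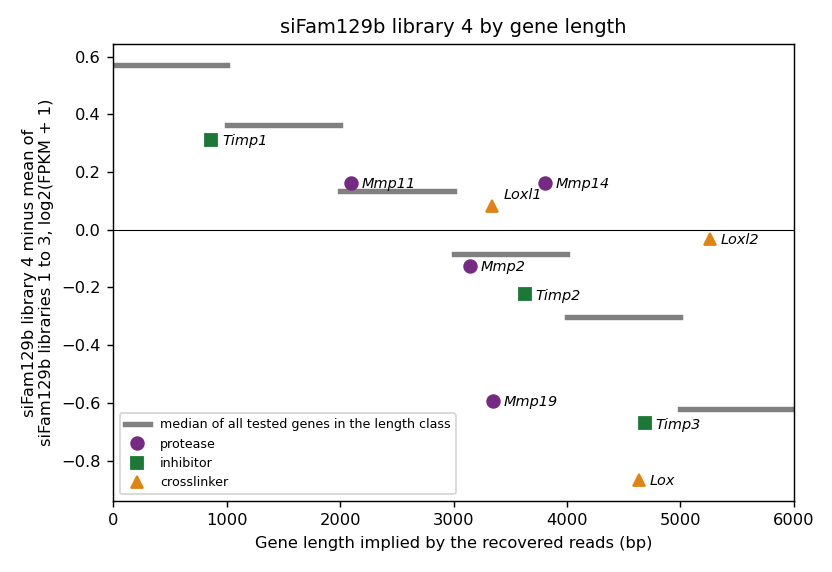
Difference of siFam129b library 4 from the mean of siFam129b libraries 1 to 3 on log2(FPKM + 1), against gene length in bp, with points for members by class and grey bars for the median of all tested genes per length class (the last bar stands for all genes over 5000 bp). Timp1 lies above 0 and Timp3 and Lox lie below, while Loxl2, the longest member, stays at -0.03.

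A second order ran through both groups: libraries 1 and 2 were above 3 and 4 for 5 of the 10 members in both groups, namely Mmp2, Mmp19, Timp2, Loxl1 and Loxl2. This held for 14.1% of tested genes, with the opposite order in 14%. In siNC alone 8 of the 10 had this order, Timp1 and Timp3 being the exceptions, as did 31.7% of tested genes. Mmp2 averaged 177 and 144 FPKM in siFam129b libraries 1 and 2 and in 3 and 4, and 181 and 130.5 FPKM in the same siNC pairs. Mmp19 averaged 12.2 and 8.38 FPKM in these siFam129b pairs, and 11.7 and 7.36 FPKM in those of siNC. Loxl1 averaged 52.9 and 42.5 FPKM with siFam129b, and 51.9 and 35.7 FPKM with siNC. As a log2 ratio of the pair means, Mmp19 had the widest gap, 0.55 with siFam129b and 0.67 with siNC, and the ratio in siNC was 0.07 for Timp1, 0.06 for Timp3 and 0.05 for Lox. The replicate gap in Mmp2, Mmp19 and Loxl1 thus exceeded the difference between the siRNAs. The summed myotube markers (Myog, Acta1 and 6 others) moved with it. They had 27.7, 26.8, 12.4 and 15.9 FPKM in siFam129b libraries 1 to 4. In siNC libraries 1 to 4 they had 51.2, 49.6, 25.4 and 18.5 FPKM. At each library number the siFam129b sum was below the siNC sum, but the numbers were not taken to pair the samples. The ranges of the groups overlapped. The summed fibroblast markers, mostly Gsn and Cd34, had 404, 384, 332 and 392 FPKM in siFam129b libraries 1 to 4. In siNC libraries 1 to 4 their sums were 377, 376, 314 and 281 FPKM. The part of these cell states in the order of the members, or in their differences between the siRNAs, was not tested. Within replicates 1 and 2 the log2 difference between siRNAs was -0.03 for Mmp2, 0.06 for Mmp19 and 0.02 for Loxl1, and within 3 and 4 it was 0.14, 0.16 and 0.24.

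**Figure D4:**
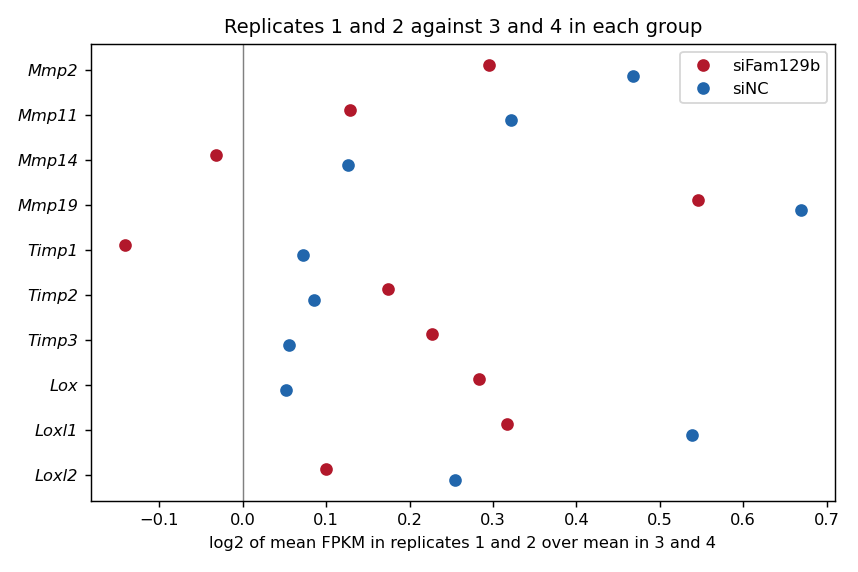
Log2 ratio of the mean FPKM in replicates 1 and 2 to that in 3 and 4 for each member, siFam129b in red and siNC in blue, a split taken from the data. Mmp19, Mmp2 and Loxl1 lie furthest right in siNC, at 0.67, 0.47 and 0.54, and Timp1 with siFam129b lies left of 0 at -0.14.

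Ratios within a library do not depend on a single factor used to scale it, but they can carry its trend with gene length. Timp2 exceeded Mmp14 by 2.29, 2.21, 2.22 and 1.71 times in siFam129b libraries 1 to 4, against 2.18, 2.22, 2.25 and 2.27 times in siNC libraries 1 to 4. Apart from siFam129b library 4, this ratio between the parts of the Mmp2 activation complex stayed between 2.18 and 2.29. Timp2 exceeded Mmp2 by 1.44, 1.45, 1.73 and 1.43 times with siFam129b, against 1.33, 1.38, 1.69 and 1.85 times with siNC. The sum of the 3 inhibitors over the sum of the 4 proteases averaged 1.51 ± 0.104 with siFam129b and 1.57 ± 0.188 with siNC (SD, n = 4 each), so inhibitor transcripts exceeded protease transcripts in each library and the groups overlapped. Timp1 over Timp3 was 3.62, 3.80, 3.37 and 7.19 with siFam129b, against 3.96, 4.57, 4.16 and 4.24 with siNC. The length classes of Timp1 and Timp3 had medians of 0.57 and -0.30 in siFam129b library 4 against libraries 1 to 3. The part of that trend in this ratio was not tested. Lox over Loxl1 ranged from 2.14 to 5.68 with siFam129b and from 3.43 to 5.54 with siNC.

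**Figure D5:**
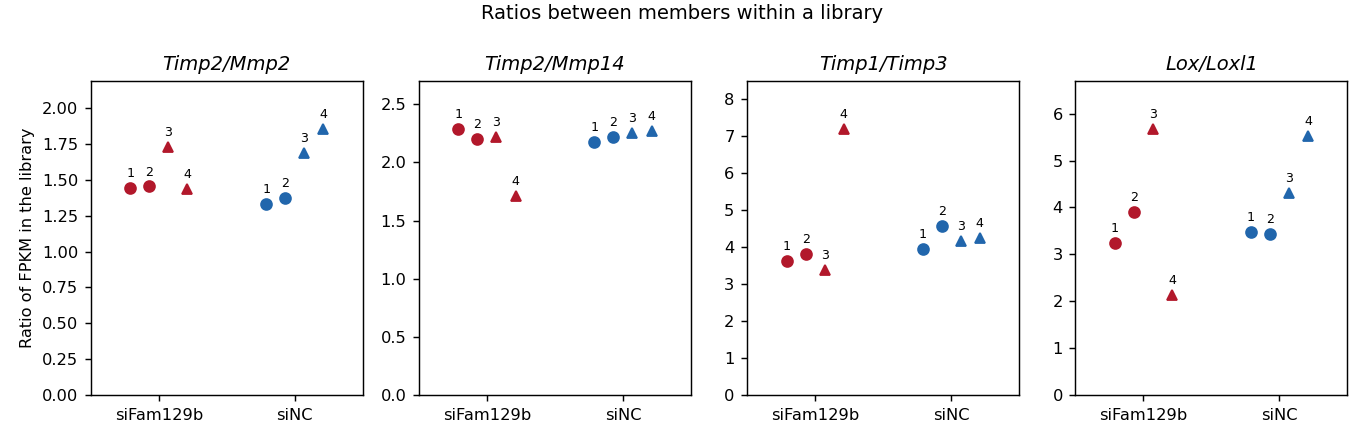
Ratios of FPKM between pairs of members within each library, siFam129b left and siNC right, circles for replicates 1 and 2 and triangles for 3 and 4. Timp2 over Mmp14 lies between 2.18 and 2.29 in 7 libraries and at 1.71 in siFam129b library 4, which also has the highest Timp1 over Timp3, 7.19.

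The genes nearest to each member in pattern were found by the root mean square difference between centred log2(FPKM + 1) values over the 8 libraries, with the values given as a description. Nearest to Mmp11 was Col18a1, a basement membrane collagen, at 0.025, where Mmp11's own root mean square deviation was 0.196. Nearest to Lox was Bmper, a modulator of bone morphogenetic protein signals, at 0.034 against 0.272. Bmper had 18.3, 18.7, 19.2 and 10.46 FPKM with siFam129b, against 17.9, 17.5, 17.3 and 17.3 FPKM with siNC, so it too was lowest in siFam129b library 4. Daam2 was nearest to Mmp2 (0.023), Fbxl20 to Mmp19 (0.066), Pgam1 to Mmp14 (0.022), Ccdc120 to Timp1 (0.036), Map1a to Timp2 (0.020), Zfp322a to Timp3 (0.058), Fam214b to Loxl1 (0.052) and Zdhhc9 to Loxl2 (0.031). Among the members themselves, 4 pairs were each other's nearest: Timp2 and Loxl2 (0.084), Mmp14 and Timp1 (0.087), Timp3 and Lox (0.095) and Mmp2 and Loxl1 (0.108). In each pair many genes outside the members were nearer still, from 47 genes nearer to Loxl1 than Mmp2 was to 743 nearer to Mmp14 than Timp1 was.

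Around the members, 9 lists of matrix genes with 136 names gave 100 tested genes, of which limma called 0 at an adjusted p of 0.05. Of the 100, 64 lay above 0 and 36 below, with a median log2 difference of 0.06. At an unadjusted p under 0.05 stood 2 of the 100, Bmp1 and Ltbp3, both higher, against 1.78% of all tested genes higher and 0.707% lower. Every siFam129b library lay above every siNC library for Adam8 and Bmp1, 2 of the 100, a share near that of all tested genes.

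Of 19 other metalloproteinases, 6 were tested and 0 called, 4 above 0 and 2 below, with a median of 0.06. Without siFam129b library 4, 3 of the 6 lay above 0 and the median was 0.01. The closest to the threshold were Mmp16 (log2 difference -0.25 ± 0.21, SE), a membrane-type enzyme, Mmp24 (0.15 ± 0.16) and Mmp28 (0.12 ± 0.14). The other 13 averaged below 1 FPKM: Mmp9, the second gelatinase, was at or under 0.118 FPKM and Mmp13, a collagenase, between 0.214 and 1.65 FPKM, with Mmp1b and Mmp20 listed at 0. Of Timp4, Reck, Loxl3 and Loxl4, Timp4 was at or under 0.164 FPKM and the other 3 lay above 0 with 0 called and a median of 0.04, which was 0.15 without siFam129b library 4. Loxl3, a further lysyl oxidase, stood at 44.6 ± 3.99 FPKM with siFam129b and 39.1 ± 4.50 FPKM with siNC (SD, n = 4 each), close to the level of Loxl1.

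Of 15 tested ADAM and ADAMTS proteases, 6 lay above 0 and 9 below, with a median of -0.07 and 0 called. Adam8 had 0.25 ± 0.12 (SE), Adamts6 -0.31 ± 0.17 and Adam12, linked to myoblast fusion, -0.27 ± 0.16. Without siFam129b library 4, 8 of the 15 lay above 0 and the median was 0.03. Of 8 genes of the plasminogen system and serpins, 4 lay above 0 and 4 below, with a median of -0.03 and 0 called, and 3 lay above 0 without siFam129b library 4 (median -0.04). Plau, urokinase, had -0.10 ± 0.08 (SE) and Serpinb6a 0.08 ± 0.12.

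Of 8 tested genes for protease activation and lysosomal proteolysis, 7 lay above 0 and 1, Cd44, below, with a median of 0.13 and 0 called. Without siFam129b library 4, 5 of the 8 lay above 0 and the median was 0.07. Cd44, a hyaluronan receptor that docks metalloproteinases on the cell surface, had 128, 135, 134 and 67.7 FPKM with siFam129b, against 152, 144, 133 and 139 FPKM with siNC. It was lowest in siFam129b library 4, and Bsg, which induces metalloproteinases, had 0.21 ± 0.13 (SE) and Ctsb 0.13 ± 0.09. Of 16 tested genes for collagen processing, 15 lay above 0 and 1 below, with a median of 0.10 and 0 called. Bmp1, the protease that trims procollagen and releases active Lox from its precursor, had 87.4, 81.5, 77.7 and 97.9 FPKM with siFam129b, against 73.6, 72.8, 68.1 and 66.6 FPKM with siNC. Every siFam129b library was above every siNC library, and its log2 difference of 0.29 ± 0.09 (SE) had an adjusted p of 0.784 in limma. P4ha3 had 0.29 ± 0.14 (SE) and Pcolce, the enhancer of Bmp1, 0.27 ± 0.15. Pcolce had 541 FPKM in siFam129b library 4 and 294 to 361 FPKM in the 7 others, and without that library 12 of the 16 lay above 0, with a median of 0.06.

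Of 15 tested collagens, 10 lay above 0 and 5 below, with a median of 0.07 and 0 called, and 14 lay above 0 without siFam129b library 4 (median 0.13). Col18a1 had 0.22 ± 0.12 (SE), Col5a1 0.12 ± 0.08 and Col4a1 0.09 ± 0.08. In 12 of these 15, libraries 1 and 2 were above 3 and 4 in both groups, as for 14.1% of all tested genes, the order that Mmp2 and Loxl1 also showed. Of 15 tested genes of elastic fibres and fibronectin, 10 lay above 0 and 5 below, with a median of 0.16 and 0 called. Without siFam129b library 4, 14 of the 15 lay above 0 and the median was 0.12. Ltbp3 had 0.27 ± 0.10 (SE), Fbln1 0.28 ± 0.13 and Emilin2 0.20 ± 0.10, and Eln, the elastin that lysyl oxidases crosslink, was at or under 0.0317 FPKM. Of 14 tested genes of transforming growth factor signalling, 5 lay above 0 and 9 below, with a median of -0.10 and 0 called. Ctgf had -0.31 ± 0.17 (SE), Tgfb2 -0.23 ± 0.17 and Tgfb1 0.18 ± 0.14, and without siFam129b library 4, 8 of the 14 lay above 0, with a median of 0.02.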

How the data were processed

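Messenger RNA of 8 C2C12 libraries was sequenced after poly(A) selection, per the labels' protocols. Values are FPKM as deposited by the authors, 1 for each gene in each library. The build mm9 comes from the submitters' processing notes; for the aligner, counter and annotation, nothing is stated in the material at hand. Columns were matched to samples by letter and replicate number, and those of siFam129b rest on the titles alone. 0 further columns of per-sample values were present.

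The 8 values of a gene could be written as whole numbers times 1 constant, to 0.001 of a read, for 16478 of 16479 genes with a value, and the smallest such numbers were taken as reads. They gave between 31466869 and 36031688 per library as lower bounds, and implied gene lengths. Such depths cover counting error only.

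Deposited FPKM were put on a log2 scale after adding 1. Genes averaging 1 FPKM or more (11025) were fitted in limma 3.58.1 under R 4.3.3, allowing the prior variance to follow the mean level, and p-values were adjusted by Benjamini-Hochberg across them. These fold changes understate the changes of low genes. The alternatives were 21 planned fits and 1 added after the data were seen (length trends). The same fit was also run on simulated data with independent noise for each gene. Promoters came from RefSeq (GRCm38.p6), overlapping genes from GENCODE M21. Genes named from each list were up to 3 with the smallest p, beside Fam129b, the nearest genes in pattern, and others chosen after their values were seen (Mmp9, Mmp13, Mmp1b, Mmp20, Eln, Pcolce's values by library). A result that this rule would name is not reported here. The members and lists were chosen with earlier results of these data known.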

Additional observations from a re-analysis of the deposited data

Results flagged for a closer look

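Of 34 sets of 4 libraries examined (10 members, Fam129b and 6 ratios, in each group), 4 had 1 library set apart from the other 3 by most of the range. For a single set, chance alone does so in about 1 in 20. The sets share genes and libraries, so the 4 cannot be weighed against that share. Fam129b in siFam129b library 4 was 128 FPKM, against 87.0 to 91.6 FPKM in the other 3. In the same library Timp2 over Mmp14 was 1.71, against 2.21 to 2.29, and Timp1 over Timp3 was 7.19, against 3.37 to 3.80. The part of that library's length trend in these ratios was not tested. Timp2 over Mmp2 was 1.73 in siFam129b library 3, against 1.43 to 1.45 in the other siFam129b libraries, while siNC libraries 3 and 4 had 1.69 and 1.85.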

How the results depend on the processing

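Over 22 alternative fits, 0 of the 10 members passed an adjusted p of 0.05, the smallest being 0.226, and 36 of 220 member values changed sign. The sign changes did not touch Mmp11 or Mmp14. After quantile normalization Mmp2, Timp1 and Timp2 were at -0.016, -0.025 and -0.075. With libraries rescaled to an equal sum, which put the median of all genes at -0.06, Mmp2, Timp1, Timp2, Timp3 and Loxl2 were at -0.011, -0.0081, -0.047, -0.022 and -0.057, and with size factors Loxl2 was at -1.87e-06. In replicates 1 and 2 alone Mmp2, Timp1, Lox and Loxl2 were at -0.032, -0.044, 0.066 and -0.067, and in 3 and 4 alone Timp2 and Timp3 at -0.025 and -0.065. With the replicate covariate and without siFam129b library 4, Timp1, Lox and Loxl2 were at -0.029, 0.13 and -0.019. Array weights put Lox at 0.11, and removal of length trends Timp1 at -0.092. The causes were not tested. Leaving out 1 library at a time gave -0.0602 to 0.136 for Mmp2, -0.0191 to 0.254 for Mmp19, -0.0193 to 0.0991 for Timp1, -0.016 to 0.0756 for Timp2, -0.0361 to 0.2102 for Timp3, -0.185 to 0.13 for Lox, -0.0186 to 0.259 for Loxl1 and -0.0513 to 0.0469 for Loxl2. Lox was above 0 in these fits when siFam129b library 4 was the one left out (0.13).

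Genes past the adjusted threshold numbered 0 in 17 of the 22 fits, 1 after quantile normalization (Fam129b), 2 with array weights, 5 with the covariate and without siFam129b library 4, and 10 in replicates 1 and 2 alone. With 1 library left out the count was 0 to 1, the 1 being Fam129b without siFam129b library 4. Fam129b then had a log2 difference of -0.91 and an adjusted p of 0.00176 in limma. It also passed at -0.86 after quantile normalization, -0.89 with array weights and -0.82 in replicates 1 and 2 alone. With the covariate and without siFam129b library 4 it passed at -0.896. With the covariate and all 8 libraries it did not pass, at -0.78 (adjusted p = 0.569 in limma). Its leave-one-out values ran from -0.91 to -0.725. Genes at an unadjusted p under 0.05 ran from 72 (replicates 3 and 4 alone) to 1241, against 274.

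Deviations of same-numbered libraries correlated at 0.531, 0.25, 0.0449 and 0.124 for replicates 1 to 4. For siFam129b replicate 1 the same number gave the highest correlation. For replicates 2, 3 and 4 another siNC number gave more: 0.473 with siNC 1, 0.393 with siNC 4 and 0.343 with siNC 3. The numbers were therefore not taken to pair the samples. With a replicate block, 0 genes passed, with 305 at an unadjusted p under 0.05, and the member differences kept their values, such as 0.23 for Mmp11 (adjusted p = 0.703 in limma) and 0.06 for Mmp2 (0.802).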
